A study of Mus musculus with 7 samples.

Results

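The SIBLING genes (small integrin-binding ligand, N-linked glycoproteins) are a family of secreted, acidic, phosphorylated proteins of bone and dentin. The 5 genes described here were chosen by symbol as Dspp, Dmp1, Ibsp, Mepe and Spp1, out of 27179 genes counted in femoral cortical bone. Of the 5, 4 passed the filter on low counts and were among the 15098 genes tested, and Dspp did not pass it. RNA was sequenced from the femora of 12-week-old female mice on a C57BL/6 background, with the bone ends cut off and the marrow flushed out. There were 3 Dmp1Cre.EfnB2f/f-labelled libraries and 4 Dmp1Cre control libraries, each from a separate mouse. Both groups carried the Dmp1Cre transgene, in which a fragment of the Dmp1 promoter drives Cre recombinase in late osteoblasts and osteocytes. Only the former also carried 2 floxed alleles of Efnb2, the gene for the ligand EphrinB2. The study's methods describe the controls used for sequencing as cousin-bred. The comparison asks whether the RNA of these matrix proteins differs between bone made with and without EphrinB2 in late osteoblasts and osteocytes.

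SIBLING proteins are secreted into the unmineralised matrix and bind calcium or hydroxyapatite through acidic and phosphorylated stretches, and most bind integrins of bone cells through an RGD motif. DMP1 and MEPE are best known from osteocytes, where DMP1 restrains FGF23 and MEPE yields an acidic peptide that inhibits mineralisation. Bone sialoprotein (Ibsp) and osteopontin (Spp1) are made by osteoblasts, and osteopontin by osteoclasts and other cells as well. DSPP is the main non-collagenous protein of dentin.

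The 5 genes lay side by side on chromosome 5 (GRCm38.p6) within 270.0 kb. In order along the chromosome they were Dspp (Entrez gene 666279, chr5:104170703-104180127), Dmp1 (13406, chr5:104197575-104214102), Ibsp (15891, chr5:104299287-104311472), Mepe (94111, chr5:104325329-104338611) and Spp1 (20750, chr5:104435111-104441053). None of them overlapped another annotated gene. In the RefSeq promoters of GRCm38.p6, 4 of the 5 genes matched, with 6 annotated starts, and Dspp did not. In each of the 4 matched genes, 1 start had the letters ATTGG, which read CCAAT on the other strand, and after 21 further bases a box that was TTTATA in Ibsp and TTTAAA in the rest. These 4 stretches are shown because ATTGG and either box stood at the same spacing beside starts of 4 neighbouring genes of the family. Each is printed 5′ to 3′ on the + strand, from 40 bases before ATTGG, with the boxes in capitals.
Dmp1 (chr5:104202520-104202591): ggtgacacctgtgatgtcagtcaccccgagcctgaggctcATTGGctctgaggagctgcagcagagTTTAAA
Ibsp (chr5:104299193-104299264): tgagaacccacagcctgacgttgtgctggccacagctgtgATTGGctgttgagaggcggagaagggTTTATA
Mepe (chr5:104325268-104325339): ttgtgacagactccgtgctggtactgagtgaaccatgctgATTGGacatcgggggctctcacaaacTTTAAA
Spp1 (chr5:104435025-104435096): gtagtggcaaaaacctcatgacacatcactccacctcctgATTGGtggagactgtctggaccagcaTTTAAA

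The ATTGG began 57 bases before the start in Dmp1, 54 in Ibsp, 21 in Mepe and 46 in Spp1. Relative to the start, the second box began at -31 in Dmp1, -28 in Ibsp and -20 in Spp1. In Mepe it began at 6, past the start. For Dmp1 the start was the second of those annotated, which lies inside the gene as counted. The stretches of Ibsp and Spp1 lay just before the gene as counted, and that of Mepe ran 11 bases past its start. On the gene's strand the spaced boxes were found at 17 of 32851 promoters (0.0517%) and on either strand at 21 (0.0639%), and they were searched for after the letters of these promoters had been seen. The 17 starts belonged to 13 genes, of which 6 were tested in these libraries. With ATTGG between 60 and 20 bases upstream there were 5 starts, those of Dmp1, Ibsp, Mepe and Spp1 and that of Sost, the gene for the osteocyte protein sclerostin. The window and both box spellings take in the 4 SIBLING genes, whose letters had been seen. Their place among the 5 starts is therefore no test. The Sost stretch, on the minus strand with ATTGG 56 bases before the start, is shown for comparison.
Sost (chr11:101967040-101967111): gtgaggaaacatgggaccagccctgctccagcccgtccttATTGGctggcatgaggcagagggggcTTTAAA
Single motifs were searched on both strands of the 250 bases upstream. CCAAT was present at 5 of the 6 starts and at 33.8% of all promoters, and the core of the RUNX site, AACCACA, was present at 2 of 6 and at 4.4% of all. TTTAAA was present at 2 of 6 (12.1% of all), TTTATA, which is TATAAA on the other strand, at 3 of 6 (12.4%), the homeobox core TAATTA at 2 of 6 (4.84%) and the E-box CACGTG at 1 of 6 (6.02%). The cAMP element TGACGTCA (1.55% of all) and the AP-1 site TGANTCA (6.75%) were at 0 of the 6. These matches describe the letters and not bound sites.

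Library totals ranged from 17245556 to 22075778 counts. Efnb2 itself was higher, not lower, in the libraries where it was labelled as deleted. It had 14.3 ± 3.21 CPM (counts scaled to TMM-normalized library size; SD, n = 3) in the Dmp1Cre.EfnB2f/f-labelled libraries and 7.3 ± 1.07 CPM (SD, n = 4) in the controls. The groups did not overlap (11.8 to 17.9 and 6.36 to 8.49 CPM), as in 11.3% of all genes. A two-sided exact permutation test gave p = 0.0286, the smallest that the 35 splits allow. The log2 fold change of Efnb2 was 0.96 ± 0.21 (SE) with a Benjamini-Hochberg adjusted p of 0.511 by edgeR's quasi-likelihood test. These counts cover the whole gene in bulk bone, which also holds cells that the Cre does not reach, so they do not measure the deletion in osteocytes. The study checked the deletion separately, by PCR across the targeted part in sorted osteocytes. Controls 1 and 4 stood apart from the other 5 libraries on the first principal component. The osteocyte markers were detected in every library (116.3 to 408.0 CPM in sum). Some genes of other cells went with the genotype labels in the direction of their log2 fold changes. The sums of the endothelial, erythroid and neutrophil genes did not overlap between the groups. The muscle sums did, with control 3 (27790 CPM) above Dmp1Cre.EfnB2f/f replicate 1 (26080 CPM). In the Dmp1Cre.EfnB2f/f-labelled libraries and in the controls, the 8 muscle genes (8 positive log2 fold changes, 4 past an unadjusted p of 0.05 by edgeR) summed to 26080 to 39910 and 12190 to 27790 CPM, and the 6 endothelial genes (6 positive, 3 past it) to 426.8 to 517.9 and 327.6 to 412 CPM. The 6 erythroid genes (6 negative, 4 past it) summed to 4385 to 10180 and 11520 to 32120 CPM, and the 7 neutrophil genes (7 negative, 1 past it) to 11870 to 14890 and 16970 to 19820 CPM. Over all genes tested, 9.66% were past the same unadjusted p. The summed macrophage, cartilage, B-lineage and fat markers overlapped between the groups, with 0 genes past it. At the adjusted threshold edgeR, DESeq2 and limma-voom called 0 genes of these 8 lists. Limma run as the study describes it, without its block for the day of collection, called 7 muscle, 5 endothelial, 4 of 5 fat and 2 of 6 B-lineage genes higher in the Dmp1Cre.EfnB2f/f-labelled libraries and 3 erythroid and 1 neutrophil genes lower, beside 14.9% of all genes. Of the 4 fat genes, Cidec and Cfd had negative log2 fold changes by edgeR (-0.42 and -0.32), with control 1 the highest library for both. The part of these 8 lists in the results below was not tested. In bulk bone, fewer cells of a type and less RNA per cell cannot be told apart.

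Compared per length, in TPM (counts scaled by gene length and library size) over all 7 libraries, bone sialoprotein and osteopontin RNA stood well above DMP1 and MEPE RNA, and DSPP RNA was close to none. Ibsp had 365.3 ± 162.3 TPM (SD, n = 7) and Spp1 360.2 ± 170.1, ranks 231 and 235 of the 27179 genes. Dmp1 had 72.2 ± 37.7 TPM (rank 1792) and Mepe 52.5 ± 29.6 TPM (rank 2641). Within a library, Ibsp and Spp1 could not be ordered, since Ibsp was the higher in 4 of 7 libraries and the mean log2 ratio was 0.01 ± 0.48 (SD; two-sided exact sign-flip permutation test, p = 0.969). Spp1 was above Dmp1 in 7 of 7 libraries, by a log2 ratio of 2.31 ± 0.35 (exact permutation p = 0.0156). Dmp1 was above Mepe in 7 of 7 libraries, by 0.51 ± 0.24 (exact permutation p = 0.0156, the smallest that 7 libraries can give).

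**Figure D1:**
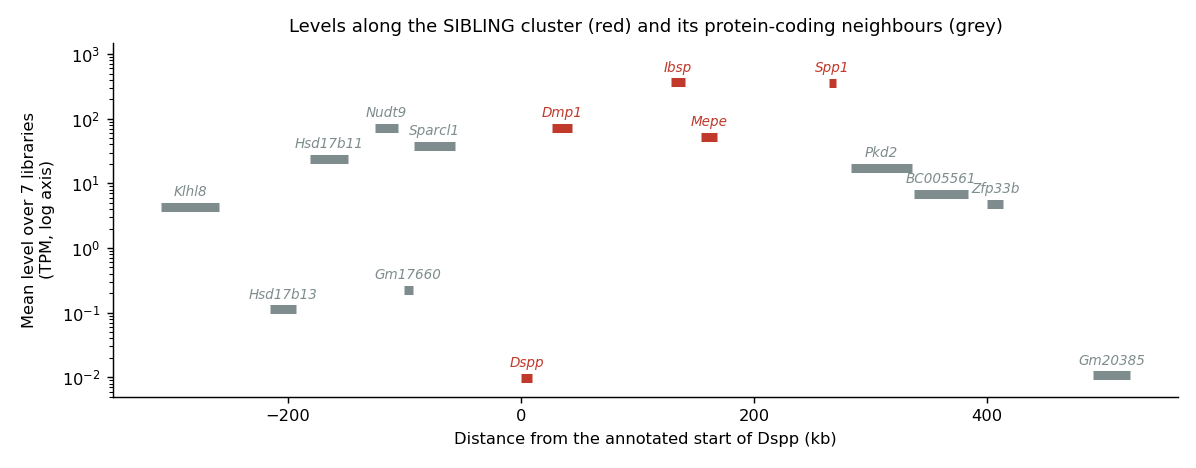
Mean level of each gene over the 7 libraries (TPM, log axis) against its distance along chromosome 5 from the start of Dspp (kb). Shown are the 5 SIBLING genes and the counted protein-coding genes within 300 kb. Ibsp and Spp1 are the highest of the family at 365.3 and 360.2 TPM, with Dmp1 and Mepe below them.

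Dmp1, the acidic phosphoprotein of osteocytes whose promoter drives the transgene, had 157.6, 87.6 and 85.7 CPM in the 3 Dmp1Cre.EfnB2f/f-labelled libraries. The controls had 233.6, 76.0, 56.4 and 85.9 CPM. The groups overlapped, with control 1 the highest library and control 3 the lowest. The means were 110.3 ± 41.0 CPM (SD, n = 3) and 113.0 ± 81.3 CPM (SD, n = 4), and the log2 fold change was -0.03 ± 0.48 (SE; edgeR's quasi-likelihood test, Benjamini-Hochberg adjusted p = 0.979). The 95% interval of the fold ran from 0.457 to 2.09, and scaling by library size only turned the log2 fold change to 0.065.

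Mepe, the matrix extracellular phosphoglycoprotein, had 79.5, 41.5 and 40.6 CPM in the Dmp1Cre.EfnB2f/f-labelled libraries. In the controls it had 92.7, 37.2, 20.0 and 29.2 CPM. Control 1 was again the highest library and control 3 the lowest, and the 3 Dmp1Cre.EfnB2f/f-labelled libraries were above the other 3 controls. The means were 53.9 ± 22.2 CPM (SD, n = 3) and 44.8 ± 32.7 CPM (SD, n = 4), with a log2 fold change of 0.27 ± 0.50 (SE; edgeR, Benjamini-Hochberg adjusted p = 0.813) and a 95% interval of the fold from 0.545 to 2.66.

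Ibsp, the bone sialoprotein, had 531.9, 451.5 and 337.9 CPM in the Dmp1Cre.EfnB2f/f-labelled libraries and 463.3, 516.3, 220.7 and 168.4 CPM in the controls. Control 1 did not stand out for Ibsp. Controls 1 and 2 lay within the range of the Dmp1Cre.EfnB2f/f-labelled libraries, and controls 3 and 4 lay below the other 5 libraries. The means were 440.5 ± 97.5 CPM (SD, n = 3) and 342.2 ± 173.1 CPM (SD, n = 4). The log2 fold change was 0.36 ± 0.40 (SE; edgeR, Benjamini-Hochberg adjusted p = 0.688), with a 95% interval of the fold from 0.685 to 2.42.

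Spp1, or osteopontin, which anchors osteoclasts to bone and inhibits crystal growth, had 412.9, 411.7 and 268.6 CPM in the Dmp1Cre.EfnB2f/f-labelled libraries. The controls had 625.1, 239.9, 172.5 and 181.6 CPM. As with Mepe, the 3 Dmp1Cre.EfnB2f/f-labelled libraries lay below control 1 and above controls 2 to 4. The means were 364.4 ± 83.0 CPM (SD, n = 3) and 304.8 ± 215.6 CPM (SD, n = 4), and the log2 fold change was 0.26 ± 0.46 (SE; edgeR, Benjamini-Hochberg adjusted p = 0.802; 95% interval of the fold 0.58 to 2.46).

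Dspp, the dentin gene, had 2, 0 and 0 counts in the Dmp1Cre.EfnB2f/f-labelled libraries and 0, 0, 0 and 1 in the controls, 3 counts in all. A count of 0 allows up to 3 counts, which was 0.136 to 0.174 CPM over the libraries, so no difference was detectable at this depth and no fold is given. Such floors cover counting error only.

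**Figure D2:**
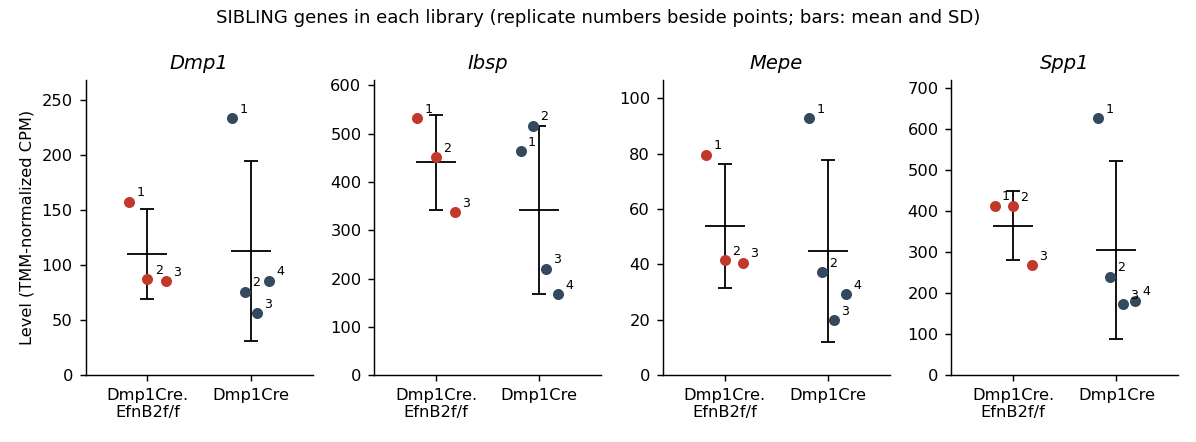
TMM-normalized CPM of Dmp1, Mepe, Ibsp and Spp1 in each library (points) with the mean and SD of each group (3 Dmp1Cre.EfnB2f/f-labelled libraries, 4 Dmp1Cre). In each of the 4 genes the groups overlap, and control 1 is the highest point for Dmp1, Mepe and Spp1.

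By edgeR's quasi-likelihood test, 0 of the 4 tested genes passed an adjusted p of 0.05 and 0 passed an unadjusted p of 0.05. Over all 15098 genes tested, the shares were 0% and 9.66% (1459 genes). Among all genes the groups did not overlap in 11.3%, against 0 of the 4. DESeq2 called 0 of the 4 at the adjusted threshold (0.477% of all genes) and limma-voom 0 of the 4 (0.384%). Limma as the study describes it, without its block for the day of collection, called 1 of the 4, Spp1 (log2 fold change 0.92, Benjamini-Hochberg adjusted p = 0.0192), and 14.9% of all genes. Two-sided exact permutation tests of the levels gave p = 0.971 for Dmp1, 0.629 for Mepe, 0.4 for Ibsp and 0.714 for Spp1, where the smallest p that 35 splits allow is 0.0286.

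Control 1 was the highest library for 3 of the 4 genes and control 3 the lowest for the same 3. Over all genes tested, control 1 was the highest in 14% and control 3 the lowest in 13.4%. Without control 1 the log2 fold change was 0.60 for Dmp1, 0.90 for Mepe and 0.88 for Spp1, and none of these passed the adjusted threshold (edgeR, Benjamini-Hochberg adjusted p = 0.369 for Spp1). The unadjusted p in that edgeR fit was 0.0293 for Mepe and 0.00839 for Spp1, so 2 of the 4 genes were past 0.05, as were 11.3% of all genes. Leaving out replicate 2 or 3 of the Dmp1Cre.EfnB2f/f-labelled libraries gave 0.11 and 0.12 for Dmp1, and leaving out replicate 1 gave -0.38 for Dmp1 and -0.12 for Mepe. Without controls 1 and 4 together the log2 fold change of Dmp1 was 0.74. By edgeR 3 of the 4 genes were then past an unadjusted p of 0.05, as were 17.5% of all genes, and 0 past the adjusted one.

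**Figure D3:**
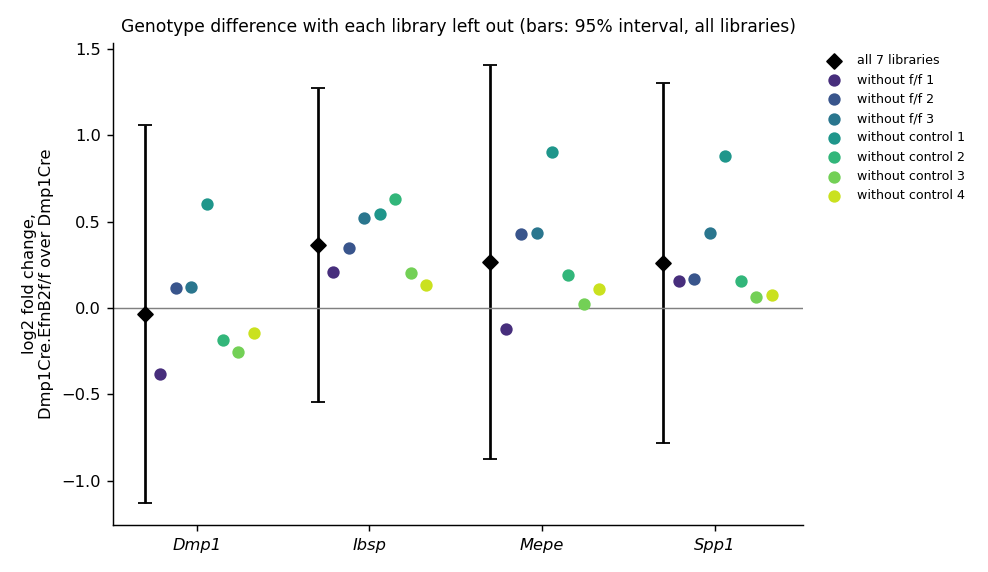
Log2 fold change of the 4 tested genes (Dmp1Cre.EfnB2f/f-labelled libraries over Dmp1Cre) from all libraries with its 95% interval, and with each library left out in turn. Leaving out control 1 moves Dmp1 from -0.03 to 0.60 and Spp1 from 0.26 to 0.88.

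The parent cross of a mouse is given by the labels, and the genotypes shared only 1 of the 4 crosses, so in the remaining libraries cross and genotype cannot be told apart. In the shared cross, with 1 mouse of each genotype, the Dmp1Cre.EfnB2f/f-labelled library was 1.52-fold the control for Dmp1, 1.53-fold for Ibsp, 2.04-fold for Mepe and 1.56-fold for Spp1, with no replicate check. Mice of 1 cross and 1 genotype also differed. Controls 1 and 2, from the same cross, differed 3.07-fold in Dmp1, 2.49-fold in Mepe and 2.61-fold in Spp1, but 1.11-fold in Ibsp. Replicates 1 and 2 of the Dmp1Cre.EfnB2f/f-labelled libraries, also from 1 cross, differed 1.8-fold in Dmp1, 1.92-fold in Mepe, 1.18-fold in Ibsp and 1.0-fold in Spp1.

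From the highest to the lowest library, Mepe ranged 4.64-fold, Dmp1 4.14-fold, Spp1 3.62-fold and Ibsp 3.16-fold. The coefficient of variation was larger in the controls than in the Dmp1Cre.EfnB2f/f-labelled libraries for each gene, 72.0% and 37.1% for Dmp1, 73.1% and 41.2% for Mepe, 70.7% and 22.8% for Spp1 and 50.6% and 22.1% for Ibsp. Without control 1, a choice made after seeing the data, the control value was 20.7% for Dmp1, 30.0% for Mepe and 18.5% for Spp1, below the other group for these 3 genes, and 62.1% for Ibsp. The difference in spread was not tested.

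The family as a whole took 0.117%, 0.096% and 0.0727% of all counts in the Dmp1Cre.EfnB2f/f-labelled libraries and 0.128%, 0.0884%, 0.0452% and 0.0388% in the controls. Within the summed TPM of the family, the mean shares of the groups differed by less than the SD of the controls. Ibsp made up 43.6% ± 0.611 (SD, n = 3) and 42.4% ± 11.7 (SD, n = 4), and Spp1 42.6% ± 3.43 and 42% ± 7.76. Dmp1 made up 7.67% ± 1.62 and 9.52% ± 3.0, and Mepe 6.12% ± 1.48 and 6.0% ± 1.4. Ibsp and Spp1 traded places within the controls, at 31.4% and 50.0% in control 1 and 57.6% and 31.6% in control 2, the mice of 1 cross.

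**Figure D4:**
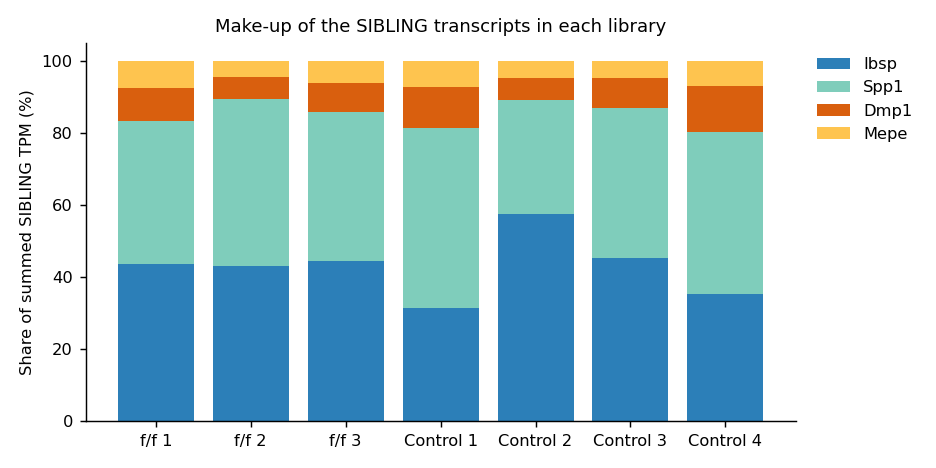
Share of each gene in the summed TPM of the SIBLING genes (percent), by library. Ibsp is between 43.1% and 44.3% in the 3 Dmp1Cre.EfnB2f/f-labelled libraries and between 31.4% and 57.6% in the 4 controls.

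Of the 6 pairs of the 4 genes, Dmp1 and Mepe, best known from osteocytes, had the highest r across libraries. The ratio of Dmp1 to Mepe in CPM stayed between 1.98 and 2.94. That of Mepe to Spp1 stayed between 0.101 and 0.193, and that of Dmp1 to Spp1 between 0.213 and 0.473. The ratios with Ibsp ran wider. They were 0.741 to 2.15 for Ibsp to Spp1, 5.0 to 13.9 for Ibsp to Mepe and 0.147 to 0.51 for Dmp1 to Ibsp. Over the 7 libraries, which share normalization and genotype groups, Pearson's r of the log2 levels was 0.954 for Dmp1 and Mepe (Spearman's rho 0.893), 0.916 for Mepe and Spp1 (rho 1.0) and 0.87 for Dmp1 and Spp1 (rho 0.893). Ibsp followed less closely, with r of 0.746 with Spp1, 0.721 with Mepe and 0.513 with Dmp1. These are descriptions of 7 points in which control 1 is high in 3 of the genes.

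Of all genes tested, those most like Mepe in pattern were Tspan11 (r = 0.995), Sost (0.986), Lamc3 (0.976), Sema5a (0.972) and Kcnk3 (0.970). The 5 most like Dmp1 were Kcnk3 (0.989), Arhgap24 (0.984), Baiap2 (0.981), Osr1 (0.980) and Zfp580 (0.979), with Mepe at rank 15. Spp1 was most like Rhod (0.998), Kirrel (0.992), Loxl4 (0.989), Irf2bpl (0.985) and Sesn3 (0.985). Among the genes most like Ibsp were Lifr, a cytokine receptor subunit (0.978), Wls, which carries Wnt proteins to the surface (0.975), St8sia6 (0.963) and Atp6v0d2, a proton pump subunit of osteoclasts (0.961). Kcnk3, a potassium channel, was among the 5 of both Dmp1 and Mepe. These genes were picked as the highest of 15097 r values over 7 libraries, so the choice itself favours values near 1. Control 1 was far above the other controls for Kcnk3, Arhgap24, Osr1, Rhod and Irf2bpl, and for Dmp1 and Spp1. Shared regulation was not tested.

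Markers of several cell types varied with the family as well, and the bone cell lists were not alone in this. The median r of the 8 osteocyte markers was 0.82 with Dmp1, 0.843 with Mepe, 0.793 with Spp1 and 0.397 with Ibsp. For the 7 osteoclast markers it was 0.83, 0.868, 0.769 and 0.678 in the same order, and for the 6 erythroid genes -0.246, -0.456, -0.501 and -0.746. The 5 cartilage markers had 0.717, 0.699, 0.711 and 0.436 and the 5 fat markers 0.642, 0.566, 0.729 and 0.17. Over all genes the median r was -0.0208, -0.064, -0.0727 and 0.0109. The osteoclast markers summed to 583.8 to 645.5 CPM in the Dmp1Cre.EfnB2f/f-labelled libraries and to 204.6 to 1240 CPM in the controls, with control 1 the highest. Their part in the levels of the SIBLING genes was not tested.

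**Figure D5:**
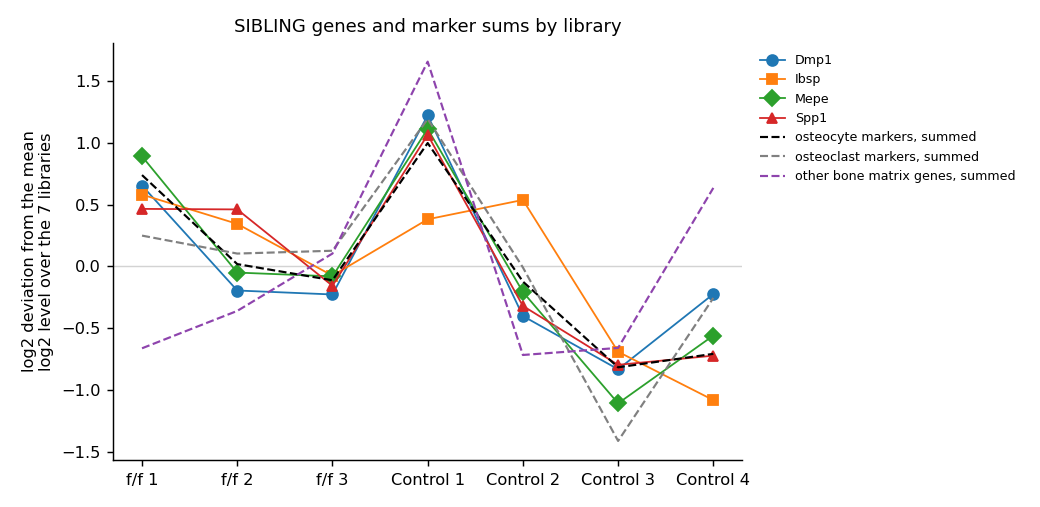
Log2 level of each of the 4 tested genes, and of the summed osteocyte, osteoclast and other bone matrix markers, as the deviation from its mean over the 7 libraries. Lines join the values of one gene or list and stand for no order of the libraries. Control 1 is high for Dmp1, Mepe and Spp1 and for all 3 marker sums.

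The other genes of the pathway were counted from lists of 15 processing genes, 10 receptors, 10 transcription factors, 11 other matrix genes and 8 osteocyte markers. By edgeR 0 genes of these lists passed the adjusted threshold and 0 an unadjusted p of 0.05, and DESeq2 and limma-voom called 0 at the adjusted one. The limma pipeline called 3 processing genes (2 higher and 1 lower in the Dmp1Cre.EfnB2f/f-labelled libraries) and 1 osteocyte marker (higher), which were Fam20a, Mmp2, F13a1 and Pdpn. That is 3 of 12 and 1 of 8 tested, against 14.9% of all genes in that pipeline. By edgeR the log2 fold changes were 0.33 for Fam20a, -0.30 for Mmp2 and -0.41 for F13a1. The tools thus differed in sign for a processing gene. The 15 processing genes were listed for cleaving, phosphorylating, dephosphorylating or crosslinking SIBLING proteins, or for assisting in matrix processing. Of these, 12 were tested, with 3 positive and 9 negative log2 fold changes and a median of -0.22 (0.01 over all genes). The highest per length was Mmp9, a protease of osteoclasts and neutrophils, with 422.9 TPM and a log2 fold change of -0.55 ± 0.32 (SE), and the extremes were Tll1, a protease of the BMP1 family (0.47 ± 0.45), and Pcolce, an enhancer of procollagen processing (-0.63 ± 0.53). Phex, the osteocyte peptidase that binds MEPE peptides, had 0.39 ± 0.37.

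Of the 10 receptors, integrin subunits and CD44, 10 were tested, with 4 positive and 6 negative values and a median of -0.04. Itgb3, the beta 3 integrin subunit that binds osteopontin, was the highest per length (250.5 TPM), with 810.0 and 812.7 CPM in the Dmp1Cre.EfnB2f/f-labelled libraries and the controls. Itgb1 had the largest positive value (0.33 ± 0.23, SE) and Cd44, also an osteopontin receptor, the most negative (-0.32 ± 0.16). Of 10 transcription factors, 9 were tested, with 6 positive and 3 negative values and a median of 0.05. Atf4 was the highest per length (108.2 TPM, log2 fold change -0.10 ± 0.16), Mef2c had the largest positive value (0.65 ± 0.30; edgeR, Benjamini-Hochberg adjusted p = 0.511) and Dlx3 the most negative (-0.24 ± 0.56). Runx2, the osteoblast master factor, had 79.9 and 79.2 CPM.

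Of the 11 other bone matrix genes, 8 had negative and 3 positive log2 fold changes, with a median of -0.51. Col1a1, the main chain of type I collagen, was the highest per length (5112 TPM) and the most negative (-0.94 ± 0.62, SE), while Ostn had the largest positive value (0.69 ± 0.45). Col1a1 was high in controls 1 and 4 (38290 and 18720 CPM). Controls 2 and 3 (7160 and 8058 CPM) lay within the range of the Dmp1Cre.EfnB2f/f-labelled libraries, 7010 to 12730 CPM. The sums of the list were likewise highest in controls 1 and 4. The SIBLING genes had 3 positive and 1 negative values and a median of 0.26. Per 1000 CPM of Col1a1, a scale chosen after seeing the data, Spp1 was at 58.9, 48.7 and 21.1 CPM in the Dmp1Cre.EfnB2f/f-labelled libraries and 16.3, 33.5, 21.4 and 9.7 CPM in the controls, with 2 of the 3 above every control. Ibsp was at 75.9, 53.4 and 26.5 CPM in the Dmp1Cre.EfnB2f/f-labelled libraries and 12.1, 72.1, 27.4 and 8.99 CPM in the controls. For Ibsp, Dmp1 and Mepe 1 of the 3 was above every control, so the groups of all 4 genes overlapped on this scale too. Of the 8 osteocyte markers, 6 were positive and 2 negative, with a median of 0.14. Sost was the highest per length (63.3 TPM, 0.07 ± 0.61), Fgf23 the most positive (0.47 ± 0.45) and Fbln7 the most negative (-0.78 ± 0.77). Fgf23 was close to the filter of 0.65 CPM, with means of 0.818 CPM in the Dmp1Cre.EfnB2f/f-labelled libraries and 0.592 CPM in the controls.

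Of 11 further protein-coding genes within 300 kb of the cluster, 7 were tested. By edgeR 0 of the 7 passed the adjusted threshold and 1, Sparcl1, an unadjusted p of 0.05. DESeq2 and limma-voom called 0 and the limma pipeline 1, also Sparcl1. Over all genes the shares were 9.66% past that unadjusted p by edgeR and 14.9% called by the limma pipeline. Sparcl1, a relative of the matrix protein SPARC that lies before Dspp, had 81.5 ± 2.40 CPM (SD, n = 3) in the Dmp1Cre.EfnB2f/f-labelled libraries and 49.4 ± 20.2 CPM (SD, n = 4) in the controls. The log2 fold change of Sparcl1 was 0.72 ± 0.31 (SE; edgeR, Benjamini-Hochberg adjusted p = 0.511). Pkd2, the polycystin beside Spp1, had a log2 fold change of 0.27 ± 0.28 and an r with Spp1 of 0.927 over the 7 libraries, with 0.852 for Mepe, 0.815 for Ibsp and 0.756 for Dmp1. Nudt9 (log2 fold change -0.30) had negative r with all 4 genes, from -0.898 with Ibsp to -0.332 with Dmp1. The remaining tested neighbours had log2 fold changes of 0.33 (Klhl8), -0.26 (Hsd17b11), 0.71 (BC005561) and 0.44 (Zfp33b), and Hsd17b13 and Gm17660 had 16 and 8 counts in all. Gm20385 had 1 count, and Gm31255 was not analysed here.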

How the data were processed

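Raw read counts per gene were deposited by the authors, who mapped paired-end reads to mm10 with Rsubread and counted them with featureCounts on its inbuilt Entrez annotation, without normalization or pooling. The submitters' notes name bcl2fastq 2.17.1.14. Strand setting is not given in the sources used here. Genes with at least 0.65 CPM in 3 libraries were kept (16302), 1204 were left out by class, and 15098 were tested with edgeR 4.0.16 (TMM, robust quasi-likelihood) in R 4.3.3; p-values were Benjamini-Hochberg adjusted, threshold 0.05. The scripts were tested on simulated data. Standard errors are the log2 fold change over the square root of F. TPM used the deposited gene lengths. Positions and promoters came from RefSeq (GRCm38.p6). Alternatives used limma 3.58.1, DESeq2 1.42.0, other scalings, filters, blocks and left-out libraries. The study's block for day of collection was not fitted. The study's methods give 2 days, with 2 Dmp1Cre.EfnB2f/f and 3 control samples on one and 1 of each genotype on the other, but not which libraries these were. The members and gene lists were chosen with earlier results of these data known. Genes named are the members, their 5 most similar genes, neighbours and the highest and extreme genes of each list; 1 gene under this rule is not reported here. Spreads between separate mice set the precision.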

Additional observations from a re-analysis of the deposited data

Results flagged for a closer look

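Dixon's ratio was taken over the 4 control libraries. It is the gap between the most extreme library and its nearest neighbour, as a share of the whole range. It was above Dixon's critical value for 11 of 79 genes checked. About 1 in 20 independent, unselected groups pass that value by chance. The genes checked share the same libraries and some were picked for likeness over them, so the 11 of 79 cannot be set against that rate. Control 1 was far above the other controls for 2 SIBLING genes, Dmp1 (0.8333) and Spp1 (0.8512). It was also far above for Arhgap24 (0.8709), Fbln7 (0.9281), Irf2bpl (0.9346), Kcnk3 (0.8445), Mgp (0.8433), Osr1 (0.8768), Ostn (0.8332) and Rhod (0.8291), of which Arhgap24, Irf2bpl, Kcnk3, Osr1 and Rhod had been named for their likeness to a SIBLING gene over the same libraries. Control 3 was far above the others for Itgb6 (0.9597), an integrin subunit. Itgb6 was at 17.1 CPM in control 3 and 18.0 CPM in Dmp1Cre.EfnB2f/f replicate 3, the mice of the shared cross. It was at 5.38 to 7.29 CPM in the other libraries, and the part of the cross was not tested.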

How the results depend on the processing

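Over 19 alternatives, Ibsp (0.14 to 0.63) and Spp1 (0.06 to 0.92) kept a positive log2 fold change. That of Dmp1 was -0.03 and became 0.065 with library size only, 0.41 with the limma pipeline, 0.48 with limma-voom, 0.081 with the replicate block, 0.60 with the parent cross block and 0.74 without controls 1 and 4 together, an alternative chosen after seeing the data. With each library left out it ran from -0.38 to 0.60, and that of Mepe from -0.12 to 0.90, negative only without Dmp1Cre.EfnB2f/f replicate 1. Over all 19 alternatives Mepe reached 1.03, with the parent cross block. The difference in CPM of Dmp1 was -2.63, 5.06 with library size only and -26.3 to 37.6 with each library left out, and that of Mepe 9.12 and -3.70 to 25.1. Genes past the adjusted threshold numbered 0 by edgeR (1459 at an unadjusted p), 72 by DESeq2, 2246 by the limma pipeline, 58 by limma-voom, 1 with the replicate block, 0 to 2 with each library left out (2 without control 4 and 2 without Dmp1Cre.EfnB2f/f replicate 3) and 2 without controls 1 and 4. The limma pipeline called 1 SIBLING gene, Spp1 (0.92), and the other alternatives 0; the cause was not tested. Libraries of the same number did not deviate together (r = -0.145, 0.063 and -0.42). The pair with -0.42 shares a parent cross, so this r cannot settle whether the numbers pair the samples. The cross block rests on 1 mouse of each genotype. Low counts kept Dspp, Mmp3, Mmp7, Mmp20, Msx2, Col9a1, Matn3 and the neighbours Hsd17b13, Gm17660 and Gm20385 from being tested.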
